A study of Homo sapiens with 20 samples.

Results

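The effect of an SP6 hairpin was set against the effect of a FOXO4 hairpin at day 3 of surface epithelium (SE) differentiation, gene by gene. For each gene the difference is the log2 change from scramble to shSP6 minus the log2 change from scramble to shFOXO4, each taken within its own deposited table, on log2(normalized count + 1). A positive difference means that the gene stood higher relative to its scramble control in shSP6 than in shFOXO4 cells. A total of 15476 genes averaged 10 or more in each of the tables and were compared, of 23202 genes listed in both tables and 31155 listed anywhere in the series. The other 7726 genes of both tables lay below the minimum. The last gene inside it had a lower table mean of 10.01 and the first gene outside it 9.99.

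RNA came from H1, an established human embryonic stem cell (hESC) line, and 8 of the 20 libraries of the series enter the comparison. Cells carrying short hairpin RNA (shRNA) to SP6 formed 1 group of 2 libraries, and cells with an shRNA against FOXO4 another. Each had its own scramble control of 2 libraries, with a hairpin that targets neither gene, and all 8 libraries came from cells in SE differentiation at the stage that the labels call initiating. The labels name 1 hairpin group per gene and do not say whether several hairpins or clones were used, nor whether the libraries of a group were separate cultures, so the spread that the p-values measure may be technical. The 2 tables were normalized separately by the authors. Hairpin, table and scramble control change together, so their parts in a difference cannot be told apart.

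FOXO4 is a forkhead transcription factor that insulin and growth factor signaling keep out of the nucleus, and forkhead factors of its family control stress, metabolic and cell cycle genes. SP6, also called epiprofin, is a zinc finger factor of the SP and KLF family, which binds GC-rich promoter sites, and mice without Sp6 have defects of skin, teeth and limbs. Surface ectoderm is the sheet of embryonic ectoderm that forms epidermis, and in culture it arises from pluripotent cells under BMP signaling by way of simple epithelium with keratins 8 and 18.

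The targeted genes stood as the labels say. FOXO4 (ENSG00000184481) measured 1875 and 2026 normalized counts in the scramble libraries and 322 and 319 in the shFOXO4 libraries, and 3084 and 3779 against 3197 and 3351 in the SP6 table. Its level was low only in the 2 shFOXO4 libraries, and scramble and shSP6 overlapped. SP6 (ENSG00000189120) measured 1790.3 and 1939 in scramble and 203 and 322 in shSP6 cells, and 1142 and 1296 in scramble and 395 and 438 in shFOXO4 cells. It was therefore low in both knockdowns, with no overlap with either scramble group. The difference between the effects was 2.54 ± 0.11 (adjusted p = 1.68e-10) for FOXO4 and -1.31 ± 0.20 (adjusted p = 9.53e-05) for SP6, by limma with Benjamini-Hochberg adjustment over all 15476 genes, as for every adjusted p here. The shSP6 effect on FOXO4 itself, -0.06, was not called, whereas the shFOXO4 effect on SP6, -1.55, was.

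The reads recovered from the deposited values numbered 16564472 to 24653156 a library. The SD between replicates was 0.161 to 0.206 on the log2 scale, widest in the scramble group of the SP6 table. Mitochondrially encoded mRNAs took 1.83 and 2.36% of the counts of that scramble group and 1.52 and 1.60% in shSP6, against 1.07 to 1.08% in all 4 libraries of the FOXO4 table. The scramble libraries held the transcription factors TFAP2A (5276 to 7170 normalized counts) and GATA3 (4162 to 5583) and the keratin KRT8 (61232 to 97062), which mark early surface ectoderm and simple epithelium, beside POU5F1 (13039 to 15654), a pluripotency factor. KRT5 and KRT14, keratins of stratified epidermis, are not listed in either table. Markers of other lineages were not all low. COL1A1, the type I collagen of mesenchyme, measured 31106 and 32664 in scramble and 33686 and 32886 in shSP6 cells, and 22353 and 21049 in scramble and 17725 and 16959 in shFOXO4 cells. The highest value in any of the 8 libraries was 97.8 for the neural crest factor SOX10, 96.5 for the fibroblast proteoglycan LUM, 74.8 for the streak factor MIXL1, 64.7 for the neural factor PAX6 and 35.4 for the trophoblast hormone subunit CGA. It was 9.56 for the neural factor SOX1, 8.87 for the fibroblast proteoglycan DCN and 5.12 for the mesoderm factor MESP1. TBXT, a primitive streak factor, measured 82.1 and 70.8 in scramble and 10.5 and 17.3 in shSP6 cells, and at most 8.39 in the FOXO4 table.

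Most genes called in both knockdowns moved the same way. The shSP6 effect was called, at an adjusted p under 0.05, for 9363 genes (60.5% of those tested), 4635 (29.9%) up and 4728 (30.6%) down. The shFOXO4 effect was called for 9260 (59.8%), 4657 (30.1%) up and 4603 (29.7%) down. Of 6586 genes called in both, 5885 (89.4%) moved in the same direction, 2913 of them up and 2972 down, and for 3916 of these the difference between the effects was not called. Across genes the effects correlated with a Pearson r of 0.73 and a Spearman rho of 0.64, given as a description, since genes are not independent replicates.

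The difference was nevertheless called for 5698 genes, 36.8% of those tested. It was positive for 2896 (18.7%) and negative for 2802 (18.1%), with a median over all genes of -0.01. Differences of at least 1 on the log2 scale numbered 1090 (7.04%) and were less even, as 750 genes (4.85%) stood higher in the shSP6 effect by that much and 340 (2.20%) lower. Among the 5698 genes, 383 (2.47% of those tested) rose in shSP6 and fell in shFOXO4 cells, and 318 (2.05%) did the reverse. A further 681 fell in both with the larger fall in shFOXO4, and 413 fell in both with the larger fall in shSP6. Rises in both were larger in shFOXO4 for 493 genes and larger in shSP6 for 382. The effect was called only in shSP6 for 693 rises and 759 falls, only in shFOXO4 for 777 rises and 711 falls, and in neither for 88.

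The scramble groups of the 2 tables are part of every difference. For 1647 of the 5698 genes (28.9%) the scramble groups lay further apart than the knockdown groups. Among differences of at least 1 this held for 42 of 750 positive ones (5.60%) and for 172 of 340 negative ones (50.6%). GDF3, a NODAL-related ligand, is an example: it measured 865 and 869 in shSP6 and 765 and 845 in shFOXO4 cells, but 268 and 293 and 76.8 and 125 in the respective scramble cells. Its difference of -1.40 ± 0.21 (adjusted p = 9.70e-05) thus comes with knockdown levels that lie close together and scramble levels that do not. These gaps are read across tables that were scaled separately. A common scale over all 8 libraries (TMM) was 1.06 to 1.07 in the SP6 table and 0.926 to 0.945 in the FOXO4 table. How far the counts of genes with a wider scramble gap depend on this scaling was not tested.

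**Figure D1:**
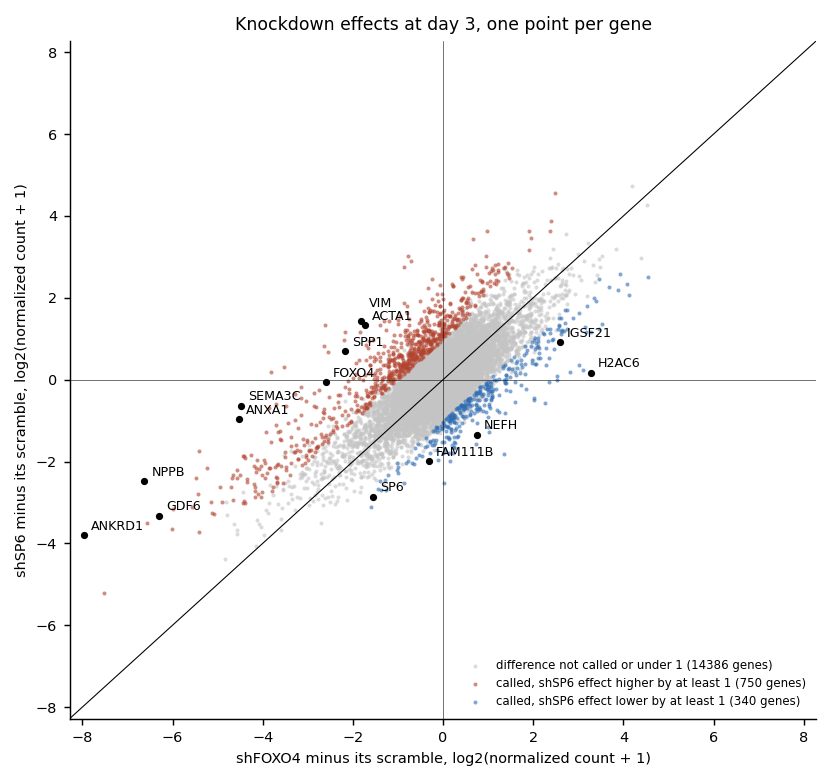
Each of 15476 genes is a point, with its shFOXO4 effect on the x axis and its shSP6 effect on the y axis, both as log2 differences from the table's own scramble group. The line marks equal effects. The 750 genes in red lie at least 1 above it and the 340 in blue at least 1 below it, all with a called difference. Labelled genes are drawn in black, and ANKRD1, NPPB and GDF6 lie at the lower left, lower in both knockdowns and lower still in shFOXO4.

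Genes of contractile filaments and the actin cytoskeleton mostly stood higher in the shSP6 effect. Of 27 tested, 17 had a called positive difference and 3 a negative one, against 18.7% and 18.1% of all genes, and their median difference was 0.79. The median effect was -0.11 in shSP6 and -1.01 in shFOXO4 cells. In shFOXO4 cells 20 of the 27 fell and 2 rose, against 29.7% and 30.1% of all genes. In shSP6 cells 11 fell and 6 rose, against 30.6% and 29.9%. In bulk RNA, fewer cells of a type and less RNA per cell cannot be told apart, here or below.

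ANKRD1 (ENSG00000148677), a nuclear and sarcomeric ankyrin repeat protein and a target of the coactivator YAP, had the highest difference of the genes described here. It measured 1673 and 1676 in scramble and 103 and 138 in shSP6 cells, and 1092 and 789 in scramble and 2.13 and 3.45 in shFOXO4 cells. Both knockdowns lay below their scramble libraries, and the shFOXO4 libraries, with a few reads each, below the shSP6 ones. The effects were -3.80 and -7.96, and the difference was 4.16 ± 0.26 (adjusted p = 9.19e-09). With so few reads, the size of the shFOXO4 effect depends on the 1 added to each count. The lead of ANKRD1 over NPPB, described next, is smaller than the standard errors.

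NPPB (ENSG00000120937), which encodes brain natriuretic peptide, followed the same order. Its levels were 993 and 1123 in scramble and 185 and 193 in shSP6 cells, and 664 and 476 in scramble and 4.25 and 5.18 in shFOXO4 cells. The difference was 4.15 ± 0.22 (adjusted p = 1.52e-09). It too rests on a few reads in each shFOXO4 library, so its size depends on the 1 added to each count. Skeletal alpha-actin, ACTA1 (ENSG00000143632), moved in opposite directions: 1622 and 1569 in scramble and 4217 and 3837 in shSP6 cells, but 1816 and 1538 in scramble and 522 and 477 in shFOXO4 cells. Its scramble groups overlapped, its knockdown groups lay on either side of them, and its difference was 3.08 ± 0.11 (adjusted p = 2.30e-11).

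Other members fell mainly in shFOXO4 cells. Cardiac actin, ACTC1, measured 4568 and 3781 in scramble, 1463 and 1526 in shSP6, 5505 and 4880.5 in scramble and 409 and 444 in shFOXO4 cells, a difference of 2.13 ± 0.11 (adjusted p = 1.52e-09). TAGLN, the actin-binding protein transgelin, measured 2724 and 2305 in scramble and 759.7 and 747 in shFOXO4 cells, whereas 1643 and 1832 in scramble and 1863 and 1909 in shSP6 cells gave an effect of 0.12 that was not called. Its difference was 1.85 ± 0.10 (adjusted p = 2.77e-09). The atrial myosin light chain MYL7 (difference 1.99 ± 0.34), calponin CNN1 (1.35 ± 0.13) and the actin ACTG2 (1.53 ± 0.25) had called positive differences too. The 3 members with a called negative difference were TNNT1 (-0.53), CNN3 (-0.27) and ZYX (-0.22). The call of ZYX was lost when any of 4 libraries was left out, at values from -0.23 without shSP6 replicate 1 to -0.19 without scramble FOXO4 replicate 2.

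Targets and partners of YAP and TEAD, which relay cell shape and density to transcription, share ANKRD1 with this list. Of 29 tested, 16 had a positive and 6 a negative called difference, against 18.7% and 18.1% of all genes, with a median of 0.38 and median effects of -0.73 in shSP6 and -0.96 in shFOXO4 cells. In shSP6 cells 23 of the 29 fell and 3 rose, against 30.6% and 29.9% of all genes. In shFOXO4 cells 25 fell and 3 rose, against 29.7% and 30.1%. CCN2, a matricellular growth factor and a standard readout of YAP, measured 1419 and 1923 in scramble and 4278 and 3991 in shSP6 cells, and 2182 and 1995 in scramble and 2301 and 2211 in shFOXO4 cells. It rose in shSP6 cells only, where the groups did not overlap, and its difference was 1.21 ± 0.14 (adjusted p = 4.95e-06). MYOF, a membrane repair protein, fell in both knockdowns, from 4162 and 3509.9 to 1252 and 1449 and from 2469.9 and 2566 to 411 and 389.5, with a difference of 1.15 ± 0.11 (adjusted p = 1.17e-06). RBMS3, an RNA-binding protein, fell in shFOXO4 cells from 39.9 and 30.4 to 4.25 and 0.864, while 63.2 and 33.4 in scramble and 50.1 and 65.03 in shSP6 cells overlapped. Its difference of 3.83 ± 0.60 (adjusted p = 1.19e-04) thus rests on a handful of reads in shFOXO4 cells.

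Promoters of 3 of these genes, and of VIM described below, are printed from RefSeq (GRCh38.p14, the 250 bases before the first listed start, 5′ to 3′ on the gene's strand) because ANKRD1, ACTA1 and VIM are among the 10 highest differences and CCN2 reports on YAP. Capitals mark GGAATG, the core letters of TEAD sites, and GGGCGG, the core of SP sites, each on either strand, so that CATTCC and CCGCCC are marked as well. Matches of 1 motif may overlap, as those of GGGCGG near the end of CCN2 do. The forkhead letters TGTTTAC were also searched and are in none of the 4.
ANKRD1: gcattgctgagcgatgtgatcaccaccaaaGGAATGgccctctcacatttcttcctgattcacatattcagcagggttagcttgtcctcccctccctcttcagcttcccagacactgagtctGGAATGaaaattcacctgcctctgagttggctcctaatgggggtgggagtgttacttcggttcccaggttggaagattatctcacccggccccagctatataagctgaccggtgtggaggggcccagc
ACTA1: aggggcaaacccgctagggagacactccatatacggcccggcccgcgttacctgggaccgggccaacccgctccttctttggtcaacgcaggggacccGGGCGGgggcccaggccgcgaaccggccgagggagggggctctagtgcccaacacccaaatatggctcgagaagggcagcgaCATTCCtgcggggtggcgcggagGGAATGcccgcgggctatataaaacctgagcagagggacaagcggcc
CCN2: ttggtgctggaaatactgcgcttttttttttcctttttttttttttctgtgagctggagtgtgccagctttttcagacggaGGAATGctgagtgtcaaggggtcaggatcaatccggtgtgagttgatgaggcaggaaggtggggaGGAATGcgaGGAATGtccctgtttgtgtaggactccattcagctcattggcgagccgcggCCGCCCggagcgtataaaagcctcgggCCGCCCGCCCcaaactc
VIM: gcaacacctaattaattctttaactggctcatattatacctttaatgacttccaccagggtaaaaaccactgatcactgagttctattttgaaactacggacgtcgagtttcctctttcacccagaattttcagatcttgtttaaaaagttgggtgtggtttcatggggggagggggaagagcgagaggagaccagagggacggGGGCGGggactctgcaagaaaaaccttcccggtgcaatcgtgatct
The windows are chr10:90921088-90921337 on the minus strand for ANKRD1, chr1:229434095-229434344 on the minus strand for ACTA1, chr6:131951373-131951622 on the minus strand for CCN2 and chr10:17227991-17228240 on the plus strand for VIM. GGAATG occurred 2 times in the windows of ANKRD1 and ACTA1, 3 times in that of CCN2 and 0 times in that of VIM. GGGCGG occurred 3 times in CCN2, 1 time in ACTA1 and VIM and 0 times in ANKRD1.

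Over all 27305 promoters of the table, 11.9% held GGAATG, 42.3% GGGCGG and 2.98% TGTTTAC, and over the 11241 matched to a tested gene 9.22%, 67.3% and 1.85%. Of the contractile and cytoskeleton genes 22 matched, and 10 of them (45.5%) held GGAATG. Of the YAP and TEAD list 22 matched, and 7 (31.8%) held it. For GGAATG the genes with a called difference of at least 1 stood nearer the background, with 12.5% of 530 positive and 10.7% of 187 negative ones. GGGCGG was in 57.9% of the positive and 54.5% of the negative ones, below the 67.3% of tested genes. It was in 72.7% of each of the contractile and YAP lists. The forkhead letters were in 2.26% of the positive and 1.60% of the negative ones. Such matches are letters, not bound sites. GGAATG was chosen after the data were seen.

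**Figure D2:**
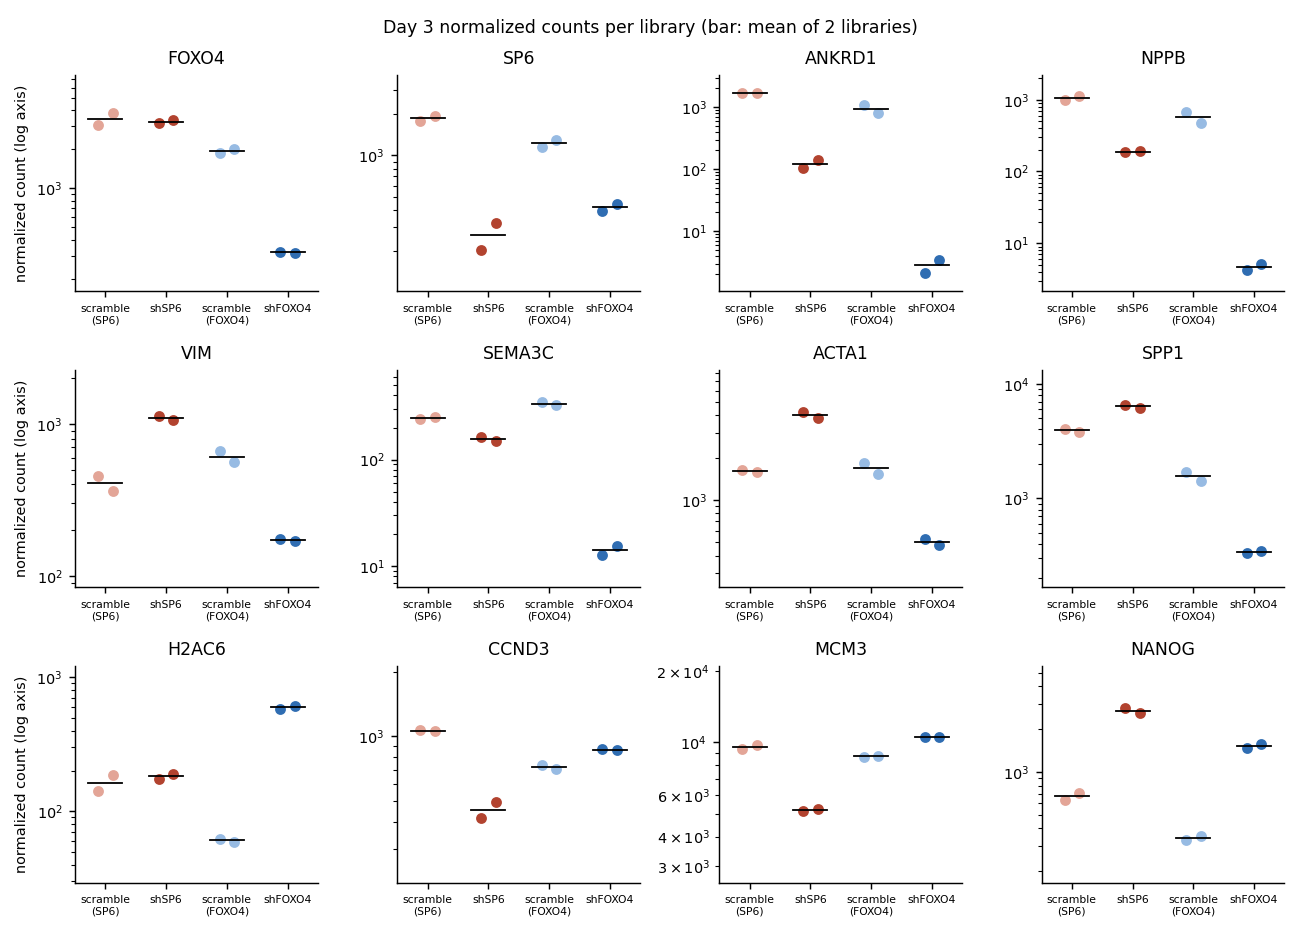
Normalized counts of 12 genes in each of the 8 libraries on log axes, with a bar at the mean of the 2 libraries of a group. FOXO4 and SP6 are the targeted genes, ANKRD1 to SPP1 have positive differences and H2AC6 to MCM3 negative ones, and NANOG rose in both knockdowns with a difference that was not called. The levels of the 2 tables stand side by side although the tables were scaled separately.

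The genes called in opposite directions included several of mesenchyme and matrix. VIM (ENSG00000026025), the intermediate filament vimentin, rose from 454 and 364 to 1129 and 1055 in shSP6 cells and fell from 658 and 558 to 174 and 169 in shFOXO4 cells. No 2 groups within a table overlapped, and the difference was 3.24 ± 0.15 (adjusted p = 2.73e-10). SPP1, the secreted phosphoprotein osteopontin, rose from 4079.7 and 3778 to 6608 and 6123 and fell from 1712 and 1422 to 337 and 349.8, a difference of 2.88 ± 0.11 (adjusted p = 3.61e-11). SPP1 also differed between the scramble groups, by 1.33 on the log2 scale. The polarity protein PARD3B (2.61 ± 0.17) and the secreted protease ADAMTS1 (2.59 ± 0.12) were also among the 6 largest differences of this kind, as was ACTA1.

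Over the mesenchymal and matrix list, 13 of 23 tested genes (56.5%) had a positive and 5 (21.7%) a negative called difference, against 18.7% and 18.1% of all genes, with a median of 0.39 and median effects of -0.11 in shSP6 and -0.66 in shFOXO4 cells. CDH2, or N-cadherin, rose from 682 and 608 to 1374 and 1351 in shSP6 cells and fell from 605 and 513 to 335 and 372 in shFOXO4 cells. The difference of 1.74 ± 0.13 (adjusted p = 4.50e-08) set it apart in the same way as VIM. COL5A2, a chain of type V collagen, rose in shSP6 cells alone, from 555 and 423 to 2134 and 1991, while shFOXO4 libraries (342 and 337) lay beside their scramble (341 and 345). Its difference was 2.10 ± 0.14 (adjusted p = 1.92e-08). ZEB2, a repressor of epithelial genes, fell in both, from 54.4 and 82.9 to 17.0 and 17.3 and from 88.0 and 94.4 to 2.13 and 5.18, so the list did not move as 1 block. COL3A1, a chain of type III collagen, fell in both, with 3.23 and 17.3 in shSP6 against 419 and 249 in scramble cells and 0 and 1.73 in shFOXO4 against 324 and 284 in scramble cells, and so few reads are left that neither a fold nor a difference is given. Among the 5 with a negative difference were the cadherin CDH11 (-1.75) and SNAI1 (-0.88), a repressor of E-cadherin, whose difference was no longer called without shFOXO4 replicate 2 (-0.67) or without shSP6 replicate 2 (-0.77). Among fibroblast markers LUM was at 0 in all 4 knockdown libraries, while COL1A1 stayed at the levels given above, between 16959 and 33686. The downward count of 5 was 3 without shFOXO4 replicate 2, shSP6 replicate 1 or shSP6 replicate 2. The summed level of the list was 99484 to 107137 in scramble and 72219 to 72741 in shSP6, and 82962 to 88680 in scramble and 37574 to 38143 in shFOXO4 libraries.

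Genes of amnion fell in both knockdowns, and many fell further in shFOXO4 cells. Their list shares members with other lists here, among them ANKRD1, KRT7, TFAP2B, GATA3 and EPAS1, so its counts partly repeat theirs. In the amnion list, which holds genes of the extraembryonic ectoderm that also arises under BMP, 21 of 22 tested genes fell in shSP6 and 22 in shFOXO4 cells. Over all genes 30.6% and 29.7% fell. The difference was called and positive for 14 (63.6%, against 18.7% of all genes) and negative for 0 (against 18.1%), or for 2 without scramble SP6 replicate 2, with a median of 0.79 and median effects of -2.20 and -2.82. SEMA3C, a secreted guidance protein, fell less in shSP6 cells, from 242 and 249.8 to 164 and 151, than in shFOXO4 cells, from 346 and 323 to 12.8 and 15.5. The difference was 3.83 ± 0.20 (adjusted p = 1.52e-09). HEY1, a NOTCH target, fell from 1196 and 736 to 146 and 218 and from 1067 and 1142 to 38.3 and 46.6, a difference of 2.28 ± 0.27 (adjusted p = 8.08e-06). The scramble libraries of the SP6 table were further apart for HEY1 than those of the FOXO4 table, and so were those of EPAS1, which encodes a hypoxia-inducible factor (8283 and 5291 in scramble, 1387 and 1724 in shSP6, 2492 and 2779 in scramble, 203 and 202 in shFOXO4, difference 1.60 ± 0.20 (adjusted p = 1.34e-05)).

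Of 12 mesoderm and primitive streak genes tested, 6 had a called positive difference and 0 a negative one (50% and 0%, against 18.7% and 18.1% of all genes), with a median of 0.87. In shSP6 cells 7 of them fell and 2 rose, against 30.6% and 29.9% of all genes. In shFOXO4 cells 9 fell and 1 rose, against 29.7% and 30.1%. KDR, a receptor of vascular endothelial growth factor, rose in both, from 709 and 796 to 3702 and 3427 and from 885 and 984 to 2799 and 2759, a difference of 0.67 ± 0.10 (adjusted p = 5.72e-05). The summed level of the list, of which KDR is the largest part, went from 2099 and 2131 to 4549 and 4341 in shSP6 and from 1739 and 1837 to 3051 and 2998 in shFOXO4 libraries. GATA6, a factor of mesoderm and endoderm, fell from 194 and 182 to 76.0 and 103 in shSP6 and from 276 and 267 to 35.1 and 34.5 in shFOXO4 cells, a difference of 1.85 ± 0.22 (adjusted p = 9.42e-06). HAND2 measured 42.2 and 31.3 in scramble and 7.28 and 7.59 in shSP6 cells and 53.2 and 52.4 and 1.06 and 0 in the FOXO4 table, where so few reads are left that no fold is given. MIXL1 moved otherwise, with a rise from 28.8 and 35.4 to 69.5 and 74.8 in shSP6 cells and 14.3 and 19.9 against 20.2 and 14.7 in shFOXO4 cells. Its difference of 1.12 ± 0.39 was lost when any of 5 libraries was left out, with values from 0.90 without scramble FOXO4 replicate 2 to 1.18 without shSP6 replicate 1. Outside this list, ANXA1 (ENSG00000135046), an annexin of many epithelia, and GDF6 (ENSG00000156466), a BMP ligand, were also among the 10 highest differences. ANXA1 fell from 1645 and 1568 to 899 and 754 and from 1141 and 923 to 43.6 and 43.2, a difference of 3.57 ± 0.14 (adjusted p = 1.01e-10). GDF6 fell from 1194 and 900.0 to 85.7 and 124 and from 1322 and 1445 to 15.9 and 17.3, a difference of 2.98 ± 0.22 (adjusted p = 6.51e-08).

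For several main regulators and keratins of early surface ectoderm no difference between the falls was called. TFAP2A fell by 2.16 in shSP6 and by 2.30 in shFOXO4 cells on the log2 scale, with a difference of 0.14 ± 0.15 that was not called. GATA3 (-2.03 and -1.86, difference -0.16 ± 0.12), GRHL2 (-1.30 and -1.18, difference -0.12 ± 0.08), KRT8 (-1.81 and -1.67, difference -0.14 ± 0.09) and KRT18 (-1.61 and -1.71, difference 0.09 ± 0.11) were not called either. A p that misses the threshold does not show equal effects. TFAP2A was called at 0.37 without scramble SP6 replicate 1, GATA3 at -0.32 without scramble SP6 replicate 2, and KRT8 at -0.20 without scramble SP6 replicate 2, at -0.26 without shSP6 replicate 2 and at 0.25 after quantile normalization. TFAP2C had a called difference of -0.21 ± 0.08 that was lost when any of 7 libraries was left out, with values from -0.25 without shSP6 replicate 2 to -0.14 without scramble SP6 replicate 1. TP63, the regulator of stratified epithelia, had one of 1.45 ± 0.50 that was lost without any of 5 libraries, from 0.90 without shFOXO4 replicate 1 to 1.61 without scramble FOXO4 replicate 1. TP63 rests on few reads, with 1.06 and 3.45 in shFOXO4 and 18.6 and 31.4 in shSP6 cells.

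Within the list of 26 surface ectoderm regulators, 9 differences (34.6%) were positive and 4 (15.4%) negative, against 18.7% and 18.1% of all genes. With single libraries left out the counts ranged from 8 to 13 and from 2 to 5, and the median of 0.22 shrank to 0.04 without scramble SP6 replicate 2. MSX1, a homeobox target of BMP, fell from 2124 and 1738 to 281 and 375 and from 1386 and 1435 to 77.6 and 74.3, a difference of 1.64 ± 0.16 (adjusted p = 1.45e-06). DLX3, a homeobox factor of epidermis and placenta, was among those with the deeper fall in shSP6 cells, from 450.3 and 384 to 101 and 106 against 328 and 385 to 211 and 200.4, a difference of -1.21 ± 0.16 (adjusted p = 2.98e-05). Of 30 simple epithelium genes 7 differed upward (23.3%) and 4 downward (13.3%), with a median of 0.01, and the downward count was 2 without shFOXO4 replicate 1 and 1 without shSP6 replicate 1. KRT7 fell from 15460.3 and 12952 to 1858 and 2465 and from 9122 and 8457 to 479 and 489.7 (difference 1.45 ± 0.14 (adjusted p = 9.18e-07)), and SPINT1, an inhibitor of membrane proteases, fell in shSP6 cells only, from 4151 and 3552 to 2047 and 2156, against 2389 and 2534 and 2450.2 and 2521 (difference -0.88 ± 0.09 (adjusted p = 2.28e-06)). Of 20 keratinocyte genes tested 9 differed upward (45.0%) and 3 downward (15.0%), with a median of 0.35, or 7 and 1 without scramble FOXO4 replicate 2 and 6 and 1 without shFOXO4 replicate 1. The integrin ITGA6 rose in shFOXO4 cells, from 2047 and 2058 to 3684 and 3859.8, and fell slightly in shSP6 cells, from 2141 and 2265 to 2079 and 1897 (difference -1.03 ± 0.08 (adjusted p = 1.10e-07)). COL17A1, a collagen of hemidesmosomes, rose from 18.9 and 26.3 to 42.9 and 46.6 and fell from 21.5 and 29.4 to 4.25 and 5.18, at low levels throughout (difference 3.17 ± 0.45 (adjusted p = 4.95e-05)).

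Pluripotency genes rose in both knockdowns. Of 23 tested, 20 rose in shSP6 and 21 in shFOXO4 cells, against 29.9% and 30.1% of all genes. The difference was positive for 5 (21.7%) and negative for 3 (13.0%), close to the 18.7% and 18.1% of all genes, with a median of 0.07. The counts were 6 and 7 and the median -0.12 without scramble SP6 replicate 1, and 11 and 3 without scramble SP6 replicate 2. NANOG rose from 633 and 714 to 2803 and 2589 and from 332 and 350.3 to 1480.1 and 1582, and its difference of -0.16 ± 0.10 was not called. SOX2 had a difference of -0.33 ± 0.18, also not called. Both were called without scramble SP6 replicate 1, at -0.25 for NANOG and -0.64 for SOX2. POU5F1 rose by 0.69 and 0.37, a difference of 0.32 ± 0.09 (adjusted p = 0.0101) that was 0.19 without scramble SP6 replicate 1 and no longer called without scramble FOXO4 replicate 2 (0.29). POLR3G, a subunit of RNA polymerase III, rose further in shSP6 cells, from 747 and 903 to 3596 and 3219 against 659 and 635 to 1747 and 1879, a difference of 0.56 ± 0.11 (adjusted p = 0.00109). Of the NODAL pathway, LEFTY2, a secreted NODAL antagonist, rose from 1816 and 2517 to 15507 and 15446 and from 643 and 503 to 1611 and 1479, a difference of 1.42 ± 0.16 (adjusted p = 6.94e-06), while 3 members of 15 differed upward and 3 downward (20% each).

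Genes of DNA replication and the cell cycle went the other way from the contractile genes. Of 35 tested, 25 (71.4%) had a negative called difference and 2 a positive one, against 18.1% and 18.7% of all genes. The positive count was 1 without scramble FOXO4 replicate 1, shFOXO4 replicate 1 or shSP6 replicate 1. Their median difference was -0.35. In shSP6 cells 17 fell and 9 rose, against 30.6% and 29.9% of all genes, with a median effect of -0.11. In shFOXO4 cells 7 fell and 21 rose, against 29.7% and 30.1%, with a median of 0.27. These medians are small, but single genes changed more, among them MCM3 and the D cyclins described below. MCM3 (ENSG00000112118), a subunit of the replicative helicase, fell from 9373 and 9722 to 5121 and 5223 in shSP6 cells and rose from 8706 and 8759 to 10541 and 10533 in shFOXO4 cells. No groups overlapped, and the difference was -1.16 ± 0.06 (adjusted p = 1.52e-09). MCM2, another subunit of the helicase, did the same with a difference of -0.64 ± 0.07 (adjusted p = 3.26e-06).

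CCND3, or cyclin D3, fell from 1069 and 1055 to 417 and 493 and rose from 735 and 706 to 872 and 862, the most negative difference of the list (-1.49 ± 0.11 (adjusted p = 5.65e-08)). CCND2, or cyclin D2, rose in both, from 1064 and 1100.2 to 2157 and 2082 and from 1145 and 1201 to 4726 and 4813, a difference of -1.05 ± 0.08 (adjusted p = 4.24e-08). The 2 genes with a positive difference were CDK6 (0.33), a kinase partner of the D cyclins that fell in both and whose difference was not called without scramble FOXO4 replicate 1 (0.26), shFOXO4 replicate 1 (0.24) or shSP6 replicate 1 (0.30), and CDKN1C, an inhibitor of cyclin-dependent kinases. CDKN1C rose from 139.8 and 164 to 229 and 209 in shSP6 cells and fell from 139 and 133 to 53.1 and 77.7 in shFOXO4 cells, a difference of 1.60 ± 0.23 (adjusted p = 6.59e-05). The summed level of the list was 114977 to 117008 in scramble and 103243 to 105531 in shSP6 libraries, and 104869 to 105993 in scramble and 123273 to 125277 in shFOXO4 libraries. None of 27 promoters of the list that matched held GGAATG, against 9.22% of those matched to a tested gene, so few would be expected among 27. GGGCGG was in 77.8%, against 67.3%.

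**Figure D3:**
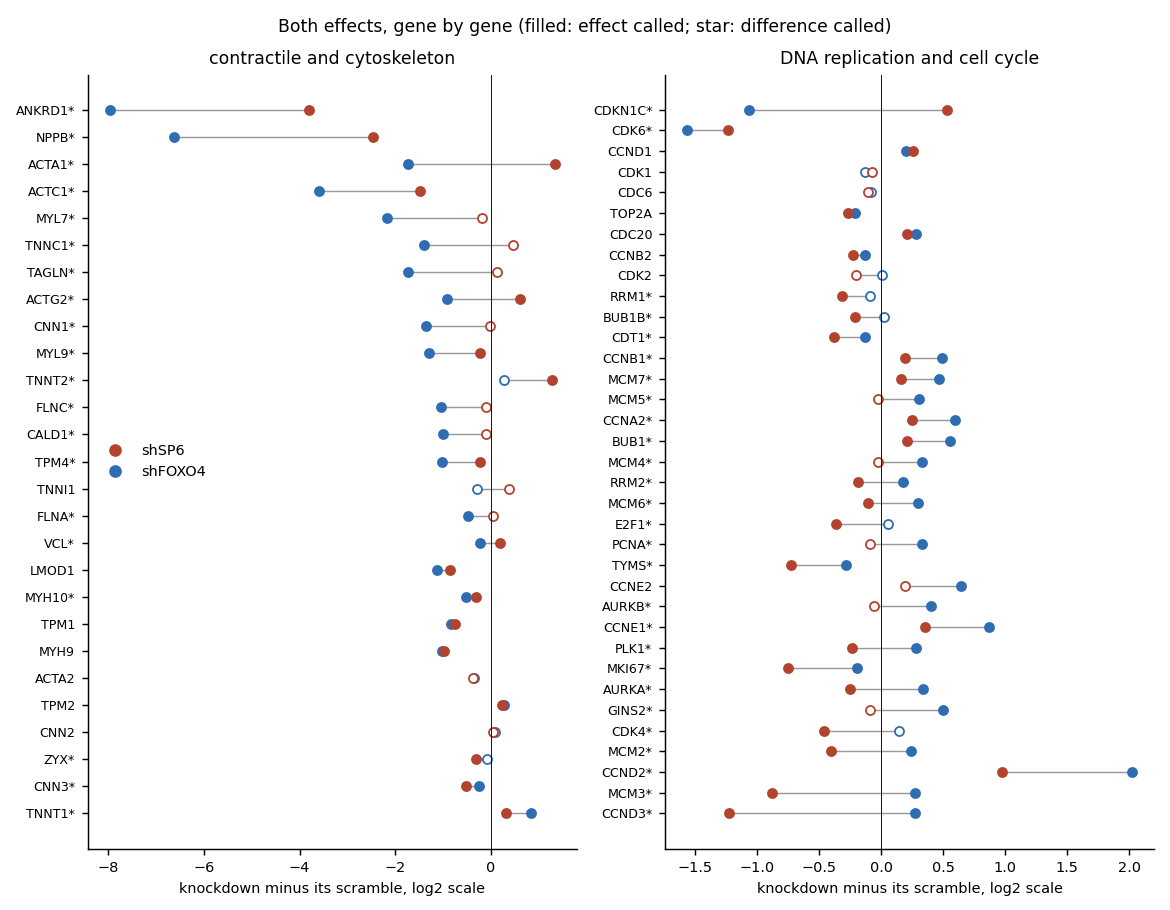
The shSP6 effect (red) and the shFOXO4 effect (blue) of each tested gene of 2 lists, as log2 differences from the table's own scramble, joined by a line. Filled points are called effects and a star marks a called difference. In the contractile list the blue points lie left of the red ones for 17 starred genes, and in the cell cycle list right of them for 25.

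H2AC6 (ENSG00000180573), a gene of the histone H2A, had the most negative difference of the genes described here. It measured 141 and 186 in scramble and 175 and 189.7 in shSP6 cells, which overlapped, and 62.4 and 58.7 in scramble and 581 and 611 in shFOXO4 cells. The difference was -3.11 ± 0.19 (adjusted p = 7.35e-09). H1-2, a linker histone, had a shSP6 effect of -0.25 that was not called and measured 94.2 and 98.6 in scramble and 267 and 244 in shFOXO4 cells, a difference of -1.64 ± 0.20 (adjusted p = 1.14e-05). Histone genes are a family of near-identical copies, and how reads shared by copies were divided is not given in the sources used here. FAM111B, which encodes a protease of dividing cells, fell mainly in shSP6 cells, from 1561 and 1415 to 352 and 397 against 1400.3 and 1271 to 1031 and 1106, a difference of -1.67 ± 0.11 (adjusted p = 1.64e-08).

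Some genes with roles in neurons or neural ectoderm were among the other negative differences. NEFH, the heavy neurofilament chain, fell from 518 and 633 to 209 and 243 in shSP6 cells and rose from 275 and 255 to 439 and 449 in shFOXO4 cells, a difference of -2.08 ± 0.15 (adjusted p = 4.69e-08). MIR124-1HG, the host transcript of a neuronal microRNA, rose in both, from 83.2 and 96.1 to 241 and 224 and from 26.6 and 23.1 to 283 and 308. Its difference of -2.15 ± 0.21 (adjusted p = 1.06e-06) came with a log2 gap, SP6 table minus FOXO4 table, of 1.81 between the scramble groups and -0.34 between the knockdown groups. IGSF21, a synaptic adhesion protein, showed the same layout (109 and 123 in scramble, 231 and 209 in shSP6, 46.1 and 54.5 in scramble, 301 and 313 in shFOXO4; difference -1.67 ± 0.19 (adjusted p = 6.68e-06)). POU3F1, a factor of epiblast and neural ectoderm, rose from 33.3 and 28.3 to 103 and 137 and from 15.4 and 19.9 to 199 and 188, a difference of -1.47 ± 0.29 (adjusted p = 9.12e-04). In unmodified cells MIR124-1HG, IGSF21 and POU3F1 averaged 715, 421 and 916 in hESC and 164, 57.7 and 30.9 at SE day 3. NEFH instead went from 128 to 249. Other neural ectoderm genes had positive differences, among them CDH2, given above, OTX2 (1.47) and NES (0.98), and the list median was 0.33. Over all genes 18.7% differed upward and 18.1% downward. Of 17 neural ectoderm genes tested 5 differed upward (29.4%) and 3 downward (17.6%), or 4 and 5 without scramble SP6 replicate 1.

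SLC8B1, the mitochondrial sodium and calcium exchanger, measured 196 and 229 in scramble, 171 and 176 in shSP6, 121 and 115 in scramble and 335 and 328 in shFOXO4 cells, a difference of -1.77 ± 0.16 (adjusted p = 5.90e-07). ZC3H15, a zinc finger protein, fell from 1712 and 1760.5 to 1083 and 1037 and rose from 1447 and 1424 to 2380.1 and 2376, a difference of -1.44 ± 0.08 (adjusted p = 1.52e-09). The paralogs RTL8A (-1.62) and RTL8B (-1.81), the pseudogene PPIAP46 (-1.88) and MTRNR2L2 (-1.44), a nuclear copy of mitochondrial sequence, also had low differences. Each has near-identical copies with which reads may be shared, so these values are uncertain. RHOXF1-AS1 (-1.67 ± 0.19) is antisense to another gene, and the sources used here do not state whether counting used strand. It measured 134 and 172 in scramble and 517 and 553 in shFOXO4 cells.

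Of signaling genes, DUSP6, a phosphatase that shuts off ERK and reads out FGF signaling, fell from 3061 and 2661 to 1125 and 1239 in shSP6 and from 3309 and 3172 to 249.7 and 258 in shFOXO4 cells, a difference of 2.40 ± 0.10 (adjusted p = 1.47e-10). ETV5, a transcription factor downstream of ERK, rose in shSP6 cells only, from 440.4 and 523 to 1003 and 992 against 616 and 536 and 612 and 566, a difference of 1.02 ± 0.13 (adjusted p = 1.41e-05). The ligand FGF2 did the same (1.11 ± 0.12 (adjusted p = 4.09e-06)), and the ligand FGF19 rose in both but further in shFOXO4 cells (-1.11 ± 0.20 (adjusted p = 4.16e-04)). Of 24 genes of FGF and ERK feedback, 8 differed upward (33.3%) and 6 downward (25%), against 18.7% and 18.1% of all genes. Of 23 WNT genes 9 differed upward (39.1%) and 4 downward (17.4%), with the highest difference in the ligand WNT5B, which fell from 1439 and 1205 to 268 and 343 and from 858 and 785 to 46.8 and 51.8 (1.91 ± 0.17 (adjusted p = 3.59e-07)). FZD7, a WNT receptor, rose from 964 and 1175 to 5746 and 5469 in shSP6 and from 1347 and 1322 to 2398 and 2453 in shFOXO4 cells (1.53 ± 0.10 (adjusted p = 1.74e-08)). BMP2, a BMP ligand, fell in shSP6 cells from 128 and 137 to 43.7 and 55.3, while 69.6 and 31.5 in scramble and 52.1 and 49.2 in shFOXO4 cells overlapped, and its difference of -1.52 ± 0.38 was -0.96 without scramble FOXO4 replicate 2. Of 27 BMP targets 8 differed upward (29.6%) and 5 downward (18.5%), or 8 and 8 without scramble SP6 replicate 2, with a median of 0.07. GREM1, a secreted BMP antagonist, rose from 158 and 169.9 to 245 and 209 and fell from 128 and 115 to 38.3 and 44.1 (2.01 ± 0.21 (adjusted p = 2.10e-06)). CYP26C1, an enzyme that degrades retinoic acid, measured 17.7 and 37.4 in scramble, 180.3 and 178 in shSP6, 19.4 and 12.6 in scramble and 8.50 and 7.77 in shFOXO4 cells, a difference of 3.61 ± 0.46 (adjusted p = 1.69e-05). Of 21 retinoic acid genes 5 differed upward (23.8%) and 2 downward (9.52%). With single libraries left out these counts ranged from 3 to 6 and from 1 to 5, and they were 4 and 4 without scramble SP6 replicate 1 and 6 and 5 without scramble SP6 replicate 2.

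Among genes known as FOXO targets 8 of 20 differed upward (40.0%) and 2 downward (10%), against 18.7% and 18.1% of all genes. The upward count was 5 without scramble FOXO4 replicate 2 or shSP6 replicate 2, and the downward one 1 without scramble FOXO4 replicate 1 or shSP6 replicate 1. The median difference was 0.18, and the median effects were -0.18 in shSP6 and -0.59 in shFOXO4 cells. SESN3, a stress-responsive inhibitor of mTORC1 signaling, fell from 7159 and 6042 to 1935 and 2330.3 and from 5197 and 5051 to 504 and 486, a difference of 1.74 ± 0.11 (adjusted p = 1.59e-08). The insulin pathway genes IRS2 (0.70 ± 0.13) and INSR (0.56 ± 0.10) rose in shSP6 cells, and in shFOXO4 cells INSR fell and IRS2 had an effect of -0.16 that was not called. FOXO3, the paralog of FOXO4, fell from 1311 and 1078 to 775 and 731 and from 938 and 986 to 279 and 318, a difference of 1.03 ± 0.13 (adjusted p = 1.36e-05). Of 20 SP and KLF family genes 3 differed upward (15.0%) and 7, SP6 included, downward (35.0%), with a median of -0.13. KLF4 rose in shSP6 cells alone, from 179.7 and 220.4 to 372 and 436 against 213 and 245 and 264 and 231 (0.90 ± 0.18 (adjusted p = 8.62e-04)).

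Subunits of the SWI/SNF chromatin remodeling complex differed downward in 10 of 27 (37.0%) and upward in 5 (18.5%), against 18.1% and 18.7% of all genes, with a median of -0.10. The upward count was 2 without shSP6 replicate 1 and 3 without shSP6 replicate 2 or any 1 of the 4 libraries of the FOXO4 table. SMARCA2, an ATPase of the complex, fell from 3232 and 2557 to 644 and 731 and from 1857 and 1692 to 123 and 156, a difference of 1.60 ± 0.16 (adjusted p = 1.30e-06). DPF3, a subunit that reads histone marks, fell in shSP6 cells from 32.2 and 26.3 to 5.66 and 7.59, with 17.4 and 9.44 and 12.8 and 16.4 in the FOXO4 table (-2.15 ± 0.54 (adjusted p = 0.00512)). SMARCC2, a core scaffold subunit, fell in shSP6 cells from 1659 and 1357 to 993 and 1076 and rose in shFOXO4 cells from 1078 and 1052 to 1244 and 1295 (-0.79 ± 0.11 (adjusted p = 4.97e-05)). Genes of the ATF4 and unfolded protein response differed upward in 13 of 24 (54.2%) and downward in 2 (8.33%), with a median of 0.39. With single libraries left out the counts ranged from 9, without scramble FOXO4 replicate 1, to 13 and from 0 to 3. CHAC1, which degrades glutathione, fell in shFOXO4 cells from 209 and 188 to 113 and 105, while 284 and 357 in scramble and 395 and 371 in shSP6 cells were not called apart (1.12 ± 0.17 (adjusted p = 9.94e-05)). ASNS, the asparagine synthetase, fell in both (-0.24 in shSP6 and -0.88 in shFOXO4 cells, difference 0.65 ± 0.08 (adjusted p = 8.25e-06)).

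Interferon-stimulated genes differed upward in 9 of 27 (33.3%) and downward in 2 (7.41%), or 9 and 4 without scramble SP6 replicate 1, against 18.7% and 18.1% of all genes. IFIT3, an antiviral effector, rose from 15.5 and 21.2 to 159 and 147 in shSP6 cells and less, from 10.2 and 9.44 to 15.9 and 25.05, in shFOXO4 cells, a difference of 2.05 ± 0.40 (adjusted p = 8.53e-04). Of the 13 mitochondrially encoded mRNAs 9 (69.2%) had a negative called difference and 0 a positive one, with a median of -0.47 that was -0.66 without scramble SP6 replicate 2. MT-ATP6, a subunit of the ATP synthase, measured 21210.4 and 17571 in scramble and 13337 and 13216 in shSP6 cells, and 9239 and 8738 and 9676 and 9508 in the FOXO4 table. The share of mitochondrial counts given above moves with this result, and its part in the other differences was not tested.

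The remaining lists are summarized by their counts, to be read against 18.7% upward and 18.1% downward over all genes. Falls within a knockdown stand against 30.6% of all genes in shSP6 and 29.7% in shFOXO4 cells. Of 14 neural crest genes 4 differed upward (28.6%) and 2 downward (14.3%), the latter 1 without shFOXO4 replicate 2 or shSP6 replicate 2. Of 14 HOX genes 13 fell in each knockdown, and 3 differed upward (21.4%) and 1 downward (7.14%), or 1 and 3 without scramble SP6 replicate 2. Of 25 genes of polycomb and DNA methylation 6 differed upward (24.0%) and 3 downward (12%). Of 30 genes of glycolysis and hypoxia 7 differed upward (23.3%) and 3 downward (10%), or 9 and 5 without scramble SP6 replicate 1. Of 24 p53 targets 8 differed upward (33.3%), or 5 without scramble FOXO4 replicate 2, and 6 downward (25%). The lists of placode (8 tested), endoderm (7), trophoblast (6) and metallothionein genes (7) held at most 2 called differences in either direction, too few to set against the share of all genes.

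**Figure D4:**
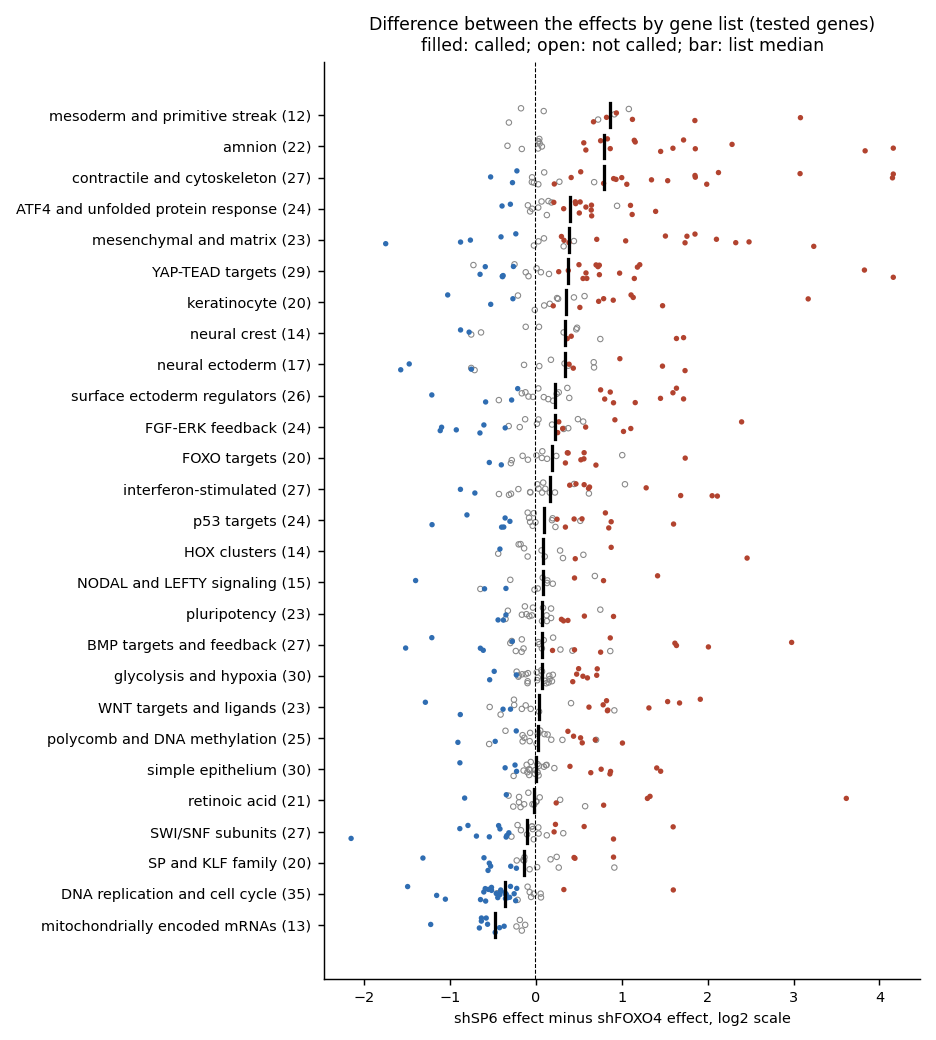
The difference between the shSP6 and shFOXO4 effects of each tested gene, by gene list, for lists with at least 10 tested genes (number in parentheses). Filled points are called differences, open points are not, black bars are list medians and the dashed line is the median of all genes at -0.01. Medians run from -0.47 for mitochondrially encoded mRNAs to 0.87 for mesoderm and primitive streak.

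Genes that change in normal differentiation were taken from the unmodified hESC and SE day 3 libraries, which the difference does not use. Of the 500 genes most raised from hESC to day 3, 169 (33.8%) differed upward and 59 (11.8%) downward, against 18.7% and 18.1% of all genes. Their median difference was 0.28, and the median effects were -1.49 in shSP6 and -1.69 in shFOXO4 cells. The median gene of this set lay back toward hESC by 35.2% of its differentiation change in shSP6 cells and by 40.6% in shFOXO4 cells. With all 1883 genes raised at least 2-fold the median difference was 0.05. Of the 500 most lowered genes 105 (21.0%) differed upward, close to the 18.7% of all genes, and 54 (10.8%) downward, against 18.1%. Their median was 0.12, and the share of the change undone was 40.9% in shSP6 and 35.1% in shFOXO4 cells.

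At day 7 the same difference was computed from 8 other libraries, for 16043 genes, of which 7868 (49.0%) were called, 3193 (19.9%) upward and 4675 (29.1%) downward, with a median over all genes of -0.11. The 4 day 7 libraries of the FOXO4 table held 5.56 to 7.47% mitochondrial mRNA counts, against 1.31 to 1.78% in the SP6 table of that day. Of the 750 genes with a positive day 3 difference of at least 1, 709 were tested at day 7, and 261 were called in the same direction and 142 in the opposite one, with a median day 7 difference of 0.34. Of the 340 with a negative one, 303 were tested, and 192 were called in the same and 12 in the opposite direction, with a median of -1.31. The shares of positive and negative genes were not tested against each other, and the all-gene share at day 7 was itself larger on the negative side.

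Among the leading genes NPPB (4.88 ± 0.43 at day 7), SEMA3C (3.08 ± 0.39), ANXA1 (4.14 ± 0.26) and NEFH (-1.83 ± 0.19) had day 7 differences that were not called apart from those of day 3. The difference between the days was called for 39.5% of 15466 genes. These met the minimum at day 3 and are listed in the day 7 tables, where no minimum was set. ACTA1 reached 6.03 ± 0.18 and RASGRF2, a RAS activator, 5.76 ± 0.34, from 2.95 ± 0.13 at day 3. RASGRF2 at day 3 measured 971 and 871 in scramble and 827 and 788 in shSP6 cells, which were not called apart, and fell from 327 and 327 to 36.1 and 36.3 in shFOXO4 cells. Of the regulators without a called difference at day 3, TFAP2A stood at -5.29 ± 0.20 at day 7, NANOG at -3.67 ± 0.49 and SOX2 at -4.50 ± 0.39. VIM shrank to 0.55 ± 0.15 and GDF6 turned to -2.15 ± 0.44. MCM3, at -1.31 ± 0.10, was not called apart from its day 3 value, and ACTC1 (5.59 ± 0.22) and TAGLN (3.89 ± 0.27) had larger positive differences than at day 3.

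**Figure D5:**
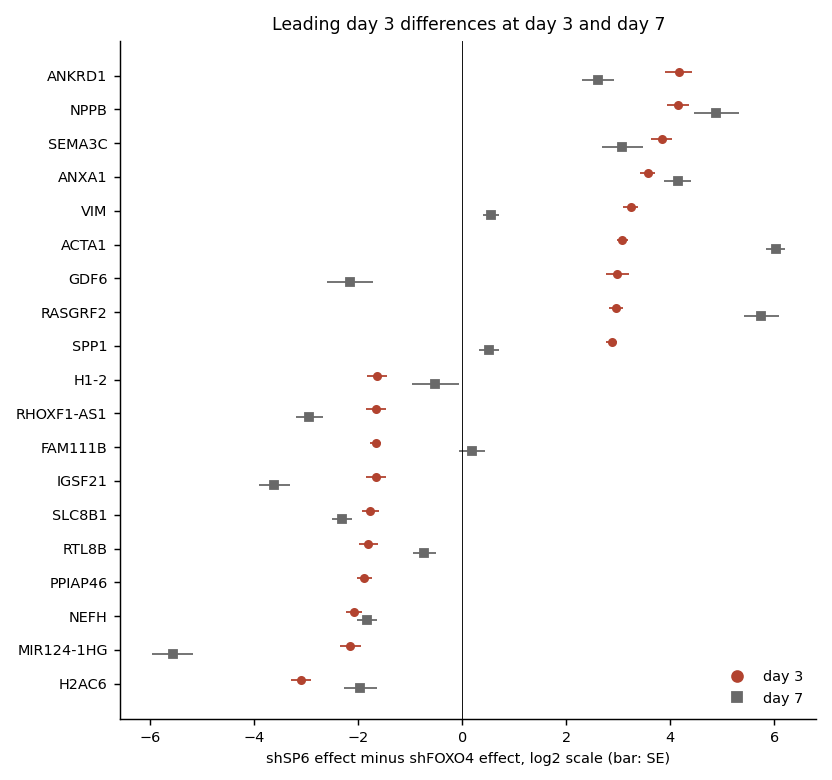
The difference between the shSP6 and shFOXO4 effects at day 3 (circles) and day 7 (squares) for 9 of the 10 genes with the highest and the 10 with the lowest day 3 difference, on the log2 scale with SE bars. ACTA1 and RASGRF2 lie further out at day 7, VIM and SPP1 nearer 0, and GDF6 changes sign, and PPIAP46 has no day 7 value.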

How the data were processed

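RNA of 20 libraries was sequenced, and 8 day 3 libraries enter the difference. The authors deposited 1 table per comparison with normalized counts, a signal in which, as the values show, each library's reads are divided by 1 factor. Trimmomatic 0.39, STAR 2.6.1, RSEM 1.3.0, DESeq2 1.20.0 and the build hg19 are named, without roles, per the submitters' processing notes. Libraries were made with a stranded mRNA kit, per the labels' protocols. In each library 100% of the deposited values were whole multiples of 1 read (tolerance 0.001 reads), which gave back the reads and the depth. In scramble replicate 2 of the SP6 day 3 table and of the FOXO4 day 7 table the step of 1 read lies so near 1 that the recovery is less certain.

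From the deposited values, log2(value + 1) was fitted with limma 3.58.1 in R 4.3.3 with 1 mean for each of the 4 groups. Each effect was taken within its own table, the difference is the contrast of the effects, and p-values were adjusted by the Benjamini-Hochberg method over the 15476 genes that averaged 10 or more in each table. Calls are adjusted p-values under 0.05. No gene symbols come with the identifiers, and 29758 of 31155 identifiers were given a symbol from an identifier table. Of 709 genes in 32 lists, 16 were in no table. Members and lists were chosen with earlier results of these data known. Day 7 was fitted the same way, and the test between the days was added after the data were seen.

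Genes named are FOXO4 and SP6, the 10 highest and 10 lowest called differences of genes that averaged 100 or more in each table, the 6 largest of each class of opposite calls, up to 5 called genes of each list with the largest difference, list members that the text describes, and 10 regulators and keratins named whatever their value. The sets of highest, lowest and opposite differences leave out placeholder symbols and genes whose sign changed with the pairing of replicates. Promoters are from RefSeq (GRCh38.p14) and are not on the build of the counts. Alternatives were pseudocounts of 0.5 and 5, no minimum, a minimum mean of 50, TMM factors, quantile normalization, library weights, a replicate block, a fit over 16 libraries, each library left out, and the quasi-likelihood test of edgeR 4.0.16 on the recovered reads. The fits were tested on simulated data with known changes. Some named genes are not reported here.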

Additional observations from a re-analysis of the deposited data

Results flagged for a closer look

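For 12 of the genes with the highest or lowest day 3 differences, the difference between the shSP6 and shFOXO4 effects was itself called different between day 3 and day 7, in a limma fit over both days with Benjamini-Hochberg adjustment. This held for 39.5% of the 15466 genes in that fit, which met the minimum at day 3 and had no minimum at day 7. Day 3 minus day 7 was 1.55 for ANKRD1, 2.68 for VIM, 5.13 for GDF6 and 2.36 for SPP1, which stood further up at day 3. It was -2.95 for ACTA1 and -2.80 for RASGRF2, which stood further up at day 7. Of the genes with negative day 3 differences, it was -1.14 for H2AC6, -1.07 for RTL8B and -1.86 for FAM111B, which lay lower at day 3. It was 3.42 for MIR124-1HG, 1.95 for IGSF21 and 1.27 for RHOXF1-AS1, which lay lower at day 7. The day 7 libraries of the FOXO4 table held 5.56 to 7.47% mitochondrial mRNA counts, and the part of that in these values was not tested.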

How the results depend on the processing

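The number of genes with a called difference was 5698, and 5695 and 5714 with pseudocounts of 0.5 and 5, 5450 with no minimum, 5272 with a minimum mean of 50, 5746 with TMM factors, 5664 after quantile normalization, 5742 with library weights, 5673 with edgeR on the recovered reads and 4321 in the fit over 16 libraries. With each library left out it ranged from 4368 to 6259, positive differences from 2242 to 3187 and negative ones from 2114 to 3072. Differences of at least 1 numbered 1090, of which 750 were positive and 340 negative. With the replicate number as a block 5550 were called. Deviations of same-numbered libraries correlated at -0.06 in the SP6 and 0.05 in the FOXO4 table, so the numbers were not taken as pairs. With no minimum, list medians moved to 0.022 for trophoblast, 0.11 for neural ectoderm, 0.66 for endoderm and -0.33 for metallothioneins. With a minimum mean of 50 they were 0.94 for endoderm and, with the sign turned, -0.084 for trophoblast. With a pseudocount of 5 they were 0.67 for mesoderm and -0.15 for HOX genes. With single libraries left out, medians ranged from -0.12 to 0.17 for pluripotency, 0.037 to 0.33 for surface ectoderm, 0.20 to 0.58 for endoderm, -0.046 to 0.34 for HOX genes, -0.55 to -0.00040 for metallothioneins and -0.66 to -0.29 for mitochondrial mRNAs. The 500 most raised genes had a median of 0.28, and all raised at least 2-fold 0.054. KRT8 turned to 0.25 after quantile normalization. The causes were not tested. Of 168 named genes 137 had the same call under every alternative run. Of 3003 gene and alternative pairs 106 lost a call, 6 gained one and 1 reversed. Depth limits genes with few reads in a group, among them ANKRD1, NPPB, RBMS3, TP63, HAND2 and COL3A1 in shFOXO4 cells.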
